A study of Zea mays with 72 samples.

Results

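The genes described here are those of leaf 6 of maize (Zea mays), in leaves supplied with the peptide ZmPep3 for 2 h set against leaves exposed for 2 h to the volatile (Z)-3-hexenyl acetate (HAC). The 6 libraries of each group were taken by their labels, which makes 12 of the 72 libraries of the study, with all 32235 genes that had values in the deposited count table. Of these genes, 25558 had enough counts to be tested. The study sequenced RNA from leaf 4, called mature, and from leaves 5 and 6, called immature, of seedlings of the inbred line B73 at the stage V4. Each leaf had a control group, groups exposed to HAC for 30 min or 2 h, and a group given ZmPep3 for 2 h, with 6 biological replicates each. Every leaf, controls included, had been detached, cut again under water, left in water to recover and then kept in clean airflow, and leaf 4 alone had its sheath removed. HAC reached the leaves through the air from dispensers, and ZmPep3 was added to the water in which they stood at about 1 µM, so the agent and its route of supply cannot be told apart. The labels give no harvest time for the controls and no dose for HAC, and whole leaves were frozen.

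HAC belongs to the green leaf volatiles, which leaves give off when damaged, and maize leaves exposed to it are known to turn on jasmonate, terpene and benzoxazinoid defences. ZmPep3 is a plant elicitor peptide. Such peptides are cut from precursor proteins and bound at the cell surface by PEPR receptor kinases, which work with SERK co-receptors and pass the signal on through calcium, reactive oxygen, MAP kinases and WRKY factors. In maize, elicitor peptides are known to induce jasmonate and ethylene synthesis, terpene emission, benzoxazinoids and defence proteins.

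Total counts of the 12 libraries ran from 29643837 to 30097660, with a median of 29865320. The first principal component of log2 CPM (counts scaled to the size of the library) over the 24 leaf 6 libraries held 29.1% of the variance, and the second 13.4%. ZmPep3 library 3 stood apart from the other ZmPep3 libraries, at 113 on the first component against 69.0 to 92.6, and it was the most extreme library of its group for many genes below. Values without it are given beside many of the genes for which it was farthest from its group. Genes that mark mesophyll cells of C4 leaves summed to between 14900 and 17720 CPM after HAC and between 12450 and 18060 CPM after ZmPep3, and 0 of 3 passed the test. Bundle sheath markers summed to between 12690 and 14020 CPM and between 10120 and 12610 CPM, with 0 of 2 past the test, so the groups did not overlap in that sum. Ligule and sheath markers (0 of 2 past the test) stayed between 7.96 and 14.0 CPM in sum, and the 2 meristem markers in the table, kn1 and knox3, were at 0 in all 12 libraries. Of 4 epidermis and cuticle markers, ocl1 was higher and EREB55 lower after ZmPep3, and their sum ran from 399.6 to 631 CPM after HAC and from 511 to 864 CPM after ZmPep3. The part of such shifts in the results was not tested. In whole leaves, fewer cells of a type and less RNA per cell cannot be told apart.

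**Figure D1:**
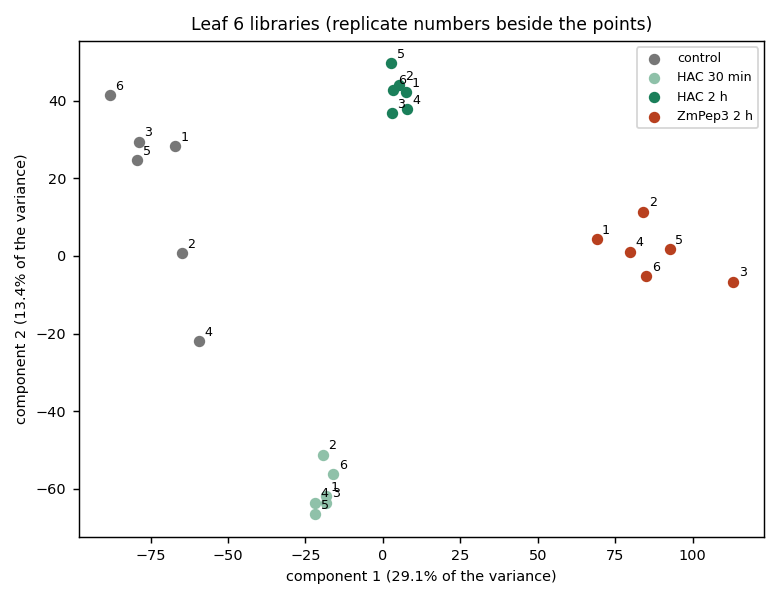
Each point is 1 of the 24 leaf 6 libraries on the first (x axis, 29.1% of the variance) and second (y axis, 13.4%) principal component of log2 CPM, coloured by group, with the replicate number beside it. The 6 HAC 2 h libraries lie close together and apart from the 6 ZmPep3 libraries, of which library 3 is farthest out, at 113 on the x axis.

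After ZmPep3, leaf 6 held more transcript of 2 of 3 receptor partners, WRKY factors, chitinases, pathogenesis-related proteins, peroxidases and a pair of ethylene synthesis genes than after HAC. After HAC, it held more transcript of terpene synthases, of a plastid isoprenoid enzyme, of the benzoxazinoid pathway, of several jasmonate repressors and of aquaporins. The differences toward ZmPep3 were more numerous and larger. Of the 25558 genes tested, 3279 were higher after ZmPep3, which is 12.8% of them, and 1647 were lower, which is 6.44%, so that 19.3% passed the threshold of an adjusted p of 0.05 (edgeR quasi-likelihood test, Benjamini-Hochberg adjustment over all genes tested). The median log2 difference was 1.06 among the higher genes, -0.60 among the lower genes and -0.01 over all genes tested. Genes that differed at least 2-fold numbered 1720 higher (6.73%) and 325 lower (1.27%), and those that differed at least 8-fold numbered 377 (1.48%) and 20 (0.0783%). For 2369 genes (9.27%) every ZmPep3 library was above every HAC library, and for 1150 (4.5%) every ZmPep3 library was below. The largest named rises and falls given below were picked among such genes, so their lack of overlap is not further support.

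These counts moved with the scaling, the groups fitted and 1 library. Without ZmPep3 library 3 there were 3859 calls, 2709 higher and 1150 lower. A fit of only these 12 libraries made 6272 calls, 3521 higher and 2751 lower, so the share that was higher fell from 66.6% to 56.1%. With DESeq2 size factors on all groups there were 3006 higher and 2193 lower (57.8%), and DESeq2's own test called 3113 higher and 2380 lower (56.7%). The plot of all genes tested shows the longer reach of the differences toward ZmPep3.

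**Figure D2:**
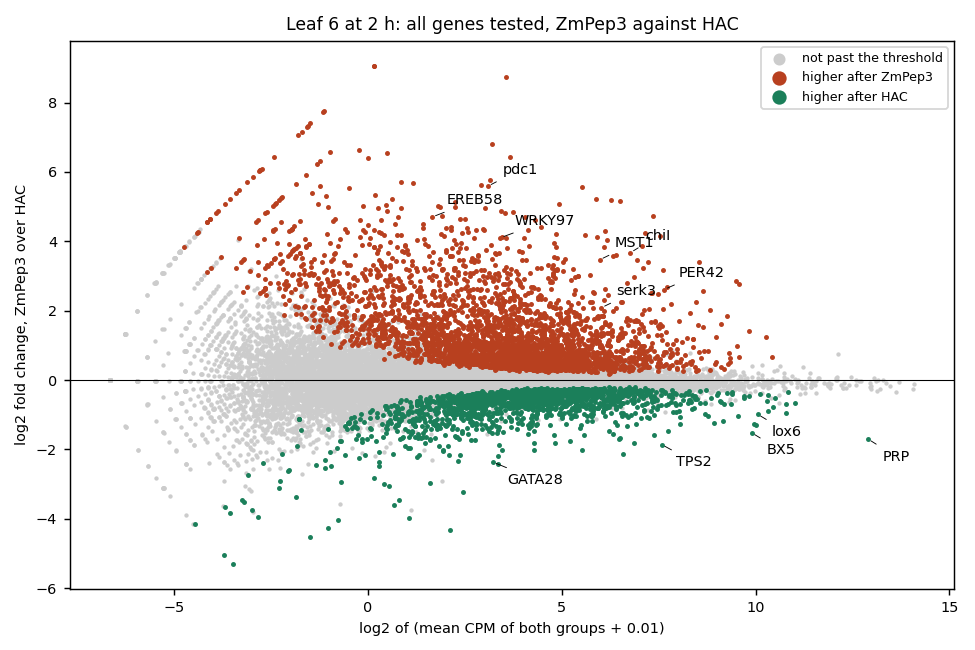
Each point is 1 of the 25558 genes tested in leaf 6, by its level (x axis, log2 of the mean CPM of both groups plus 0.01) and its log2 fold change of ZmPep3 over HAC at 2 h (y axis). The 3279 red genes were higher after ZmPep3 and the 1647 green genes higher after HAC at an adjusted p under 0.05, and red points reach farther from 0 than green points.

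Among genes for the perception and early relay of such signals, a few members of most groups differed, where 12.8% of all genes tested were higher and 6.44% lower. Of 3 SERK co-receptor genes, 2 were higher and 0 lower. The third was lower at an unadjusted p under 0.05. It was called lower in a fit of only these 12 libraries and in a fit of the 24 leaf 6 libraries. serk3 (542670), a co-receptor kinase of the kind that partners PEPR receptors in Arabidopsis, ran from 20.9 to 28.2 CPM (median 25) after HAC and from 78.2 to 149 CPM (median 101) after ZmPep3. The lowest ZmPep3 library was more than any HAC library, and the HAC libraries overlapped with the controls, which ran from 24.7 to 32.2 CPM (median 27.0). The log2 difference was 2.09 ± 0.12 (edgeR adjusted p = 3.44e-21), the smallest adjusted p of the genes named here. Both respiratory burst oxidases that passed, of 3 tested, were higher. rbohD (100136880), an oxidase that makes reactive oxygen at the plasma membrane, was at 27.2 to 39.4 CPM (median 31.4) after HAC and 55.6 to 92.5 CPM (median 68.3) after ZmPep3, again without overlap, and its log2 difference was 1.14 ± 0.21 (edgeR adjusted p = 3.43e-05).

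The counts that follow are of few members and stand beside shares over all genes tested of 12.8% higher and 6.44% lower. They are not read as a difference of the group. Of 7 calcium-dependent protein kinases, 2 were higher and 2 lower, the latter 0 without ZmPep3 library 3. Of 8 annexins 0 were higher and 2 lower, with 1 higher at an unadjusted p under 0.05 and 0 under DESeq2, and of 4 phytosulfokine precursors 1 was higher and 1 lower. Among 5 MAP kinases listed by name, MPK4 (103639280) was the member that rose. Its libraries ran from 82.0 to 101 CPM (median 94.9) after HAC to 159 to 220.5 CPM (median 182) after ZmPep3, with a log2 difference of 0.99 ± 0.14 (edgeR adjusted p = 4.11e-08). At 30 min of HAC its median had been 338 CPM, above every ZmPep3 library at 2 h. The receptor gene PepR1 (100381406) was scarce in both groups, at 0.624 to 1.51 CPM (median 0.936) after HAC and 0.798 to 2.21 CPM (median 1.82) after ZmPep3. These ranges overlapped, and its log2 difference of 0.79 ± 0.42 did not pass the test (edgeR adjusted p = 0.203, 95% interval -0.03 to 1.60). Of 8 MLO membrane protein genes tested, 2 were higher and 1 lower, with a list median of 0.11. Their summed level was higher after ZmPep3, at 175 to 261 CPM against 118.6 to 145.9 CPM after HAC. The lower one, mlo2, of a family that in barley sets susceptibility to powdery mildew, fell to 2.34 to 5.81 CPM (median 4.53) after ZmPep3 from 7.40 to 12.1 CPM (median 8.72) after HAC (log2 difference -1.06 ± 0.19, edgeR adjusted p = 9.13e-06).

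WRKY factors, which switch on defence genes downstream of such receptors, were higher after ZmPep3 in 13 of 22 genes tested and lower in 0, with a list median of 0.88 on the log2 scale. This count of 0 held under every alternative tried. WRKY97 (100280987) ran from 0.194 to 1.84 CPM (median 1.26) after HAC and from 14.4 to 30.7 CPM (median 19.8) after ZmPep3, a log2 difference of 4.10 ± 0.39 (edgeR adjusted p = 5.40e-13). WRKY43 (100279301) was at 1.42 to 3.04 CPM (median 2.23) and 23.6 to 45.6 CPM (median 33.8), a log2 difference of 3.86 ± 0.45 (edgeR adjusted p = 2.38e-09). For both genes all ZmPep3 libraries were above all 2 h HAC libraries. After 30 min of HAC their medians were 103 and 50.5 CPM, which is above their ZmPep3 medians, but the times differ and no test was made. WRKY42 (100279449) and WRKY29 (100194255) were lower at 30 min of HAC than after ZmPep3, with medians of 5.47 and 1.65 CPM. WRKY42 was at 1.02 to 3.56 CPM (median 1.65) after 2 h of HAC and 13.1 to 20.3 CPM (median 15.8) after ZmPep3 (log2 difference 2.97 ± 0.30, edgeR adjusted p = 7.69e-12). For WRKY29 the levels were 0.692 to 3.08 CPM (median 2.07) and 4.79 to 21.9 CPM (median 8.94) (log2 difference 2.40 ± 0.30, edgeR adjusted p = 2.33e-09, 2.01 without ZmPep3 library 3). WRKY96 (100277808) was nearly absent after HAC, at 0 to 0.195 CPM (median 0.151), and ran from 1.14 to 4.34 CPM (median 1.44) after ZmPep3 (log2 difference 3.92 ± 0.73, edgeR adjusted p = 2.48e-06, 3.49 without ZmPep3 library 3). The HAC and ZmPep3 libraries did not overlap for any of these 5 WRKY genes.

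Counts in other regulator families stand beside shares over all genes tested of 12.8% higher and 6.44% lower. Of 32 AP2/ERF factors tested, 4 were higher and 2 lower, which is about those shares. The lower count was 1 without HAC library 6 or ZmPep3 library 2, and 6 in a fit of only these 12 libraries. EREB58 (100384381), of this family, ran from 0 to 0.505 CPM (median 0.155) after HAC and from 2.73 to 12.1 CPM (median 4.91) after ZmPep3, with a log2 difference of 4.70 ± 0.62 (edgeR adjusted p = 1.92e-08). Of 40 bHLH factors, 3 were higher and 5 lower, or 10 lower under DESeq2. bHLH94 (100279537) rose from a range of 0.113 to 1.36 CPM (median 0.657) to one of 6.12 to 14.9 CPM (median 9.21), a log2 difference of 3.80 ± 0.45 (edgeR adjusted p = 8.36e-10). bHLH173 (100193179) fell, from 0.117 to 2.33 CPM (median 1.06) to 0 to 0.304 CPM (median 0.115), with overlap of the groups (log2 difference -2.95 ± 0.88, edgeR adjusted p = 0.0126). Of 28 bZIP factors, 9 were higher and 3 lower, of 23 NAC factors, 6 were higher, or 4 without ZmPep3 library 3, and 1 lower, and of 32 MYB factors, 7 were higher, or 5 without that library, and 1 lower, or 6 under DESeq2. GATA28 (100281278), a zinc finger factor by its name, had the largest fall among named genes of at least 5 CPM whose groups did not overlap, from 11.2 to 20.2 CPM (median 15.9) after HAC to 0.949 to 4.79 CPM (median 2.97) after ZmPep3. Its log2 difference was -2.36 ± 0.32 (edgeR adjusted p = 4.60e-08), and the HAC libraries reached higher than the controls, which ran from 10.9 to 14.5 CPM (median 13.2).

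Chitinases and pathogenesis-related (PR) proteins, which attack fungal walls or accumulate on infection, were higher after ZmPep3 in 6 of 8 genes tested and lower in 0, with a list median of 1.76. chiI (100274400), a chitinase, ran from 12.0 to 21.3 CPM (median 15.1) after HAC, close to the controls at 3.42 to 16.8 CPM (median 10.7), and from 139.8 to 360.2 CPM (median 179.7) after ZmPep3. All ZmPep3 libraries were far above all HAC libraries, with library 3 highest. The log2 difference was 3.67 ± 0.32 (edgeR adjusted p = 5.96e-13) and 3.43 without library 3. pr6 (100037765) was at 6.34 to 29.4 CPM (median 7.98) after HAC, where library 4 was far above the rest, and at 46.1 to 190.4 CPM (median 83.7) after ZmPep3 (log2 difference 3.03 ± 0.58, edgeR adjusted p = 1.13e-04). PR-5 (542720), of the thaumatin-like family, was at 26.5 to 75.1 CPM (median 62.8) after HAC and 249 to 558 CPM (median 348) after ZmPep3 (log2 difference 2.67 ± 0.38, edgeR adjusted p = 3.90e-07). chn1 (542525), a chitinase, was at 38.8 to 87.0 CPM (median 50.8) and 116 to 383 CPM (median 187) (log2 difference 1.90 ± 0.28, edgeR adjusted p = 3.03e-07). chiA (100283098) also rose but with overlap, from 9.59 to 21.4 CPM (median 13.8) to 17.8 to 71.5 CPM (median 45.4) (log2 difference 1.62 ± 0.41, edgeR adjusted p = 0.00246).

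Peroxidases, which use hydrogen peroxide in wall cross-linking and defence, rose in 3 of 5 genes tested. PER42 (100101533) had nearly the same range after HAC as in the controls, 41.4 to 75.9 CPM (median 54.9) against 45.2 to 67.9 CPM (median 55.5), and ran from 238 to 606 CPM (median 285) after ZmPep3. This gave a log2 difference of 2.61 ± 0.23 (edgeR adjusted p = 6.48e-14). PER70 (100125639) was at 1.70 to 12.2 CPM (median 3.51) after HAC and 17.7 to 71.8 CPM (median 58.7) after ZmPep3, a log2 difference of 3.52 ± 0.37 (edgeR adjusted p = 1.89e-10), and here library 6 was the low ZmPep3 library. Proteinase inhibitors, which block the digestive enzymes of insects, gave 0 calls of 9 tested in either direction under edgeR with all groups. At an unadjusted p under 0.05, 2 were higher and 2 lower. DESeq2 called 1 lower, a fit of only these 12 libraries 2 higher and 1 lower, and a fit of the 24 leaf 6 libraries 1 of each. The plot of levels by library shows chiI, serk3 and PER42 at control level after HAC and high after ZmPep3.

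**Figure D3:**
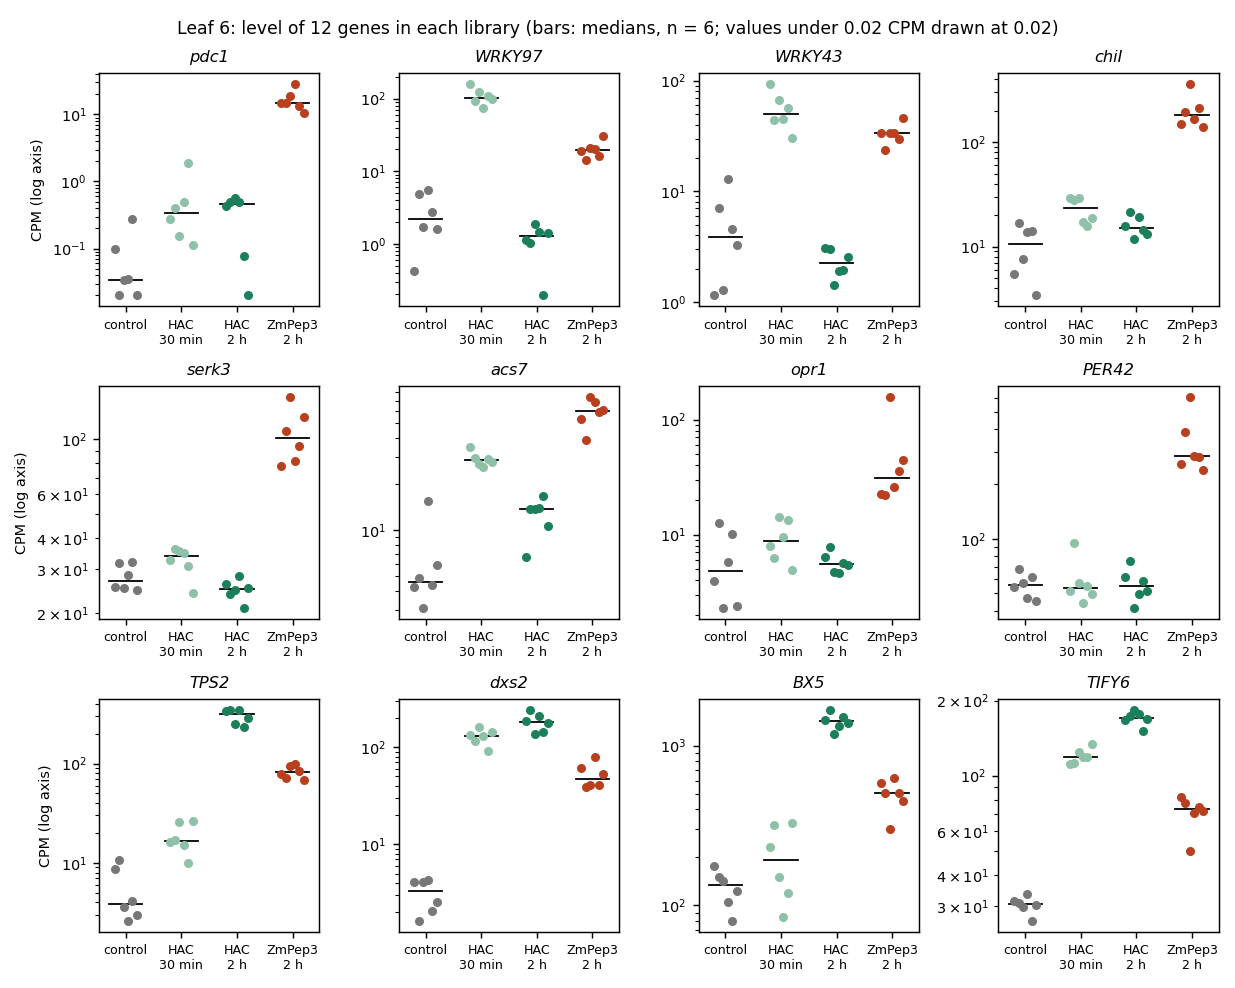
Each panel shows 1 gene, with 1 point for each of the 6 leaf 6 libraries per group (x axis: control, HAC 30 min, HAC 2 h, ZmPep3 2 h), the level in CPM on a log y axis and a bar at the median. In the upper 8 panels the ZmPep3 points are above the HAC 2 h points (serk3 78.2 to 149 against 20.9 to 28.2 CPM), and in the 4 lower panels they lie between the controls and HAC 2 h (TPS2 68.3 to 99.3 against 235 to 349 CPM).

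Of 6 genes for ethylene synthesis and receptors, 3 were higher after ZmPep3, the synthesis genes acs7 and ACO31 and the receptor gene etr2, and 0 were lower, with a list median of 0.79, though DESeq2 made 1 of them lower. acs7 (100279981), an ACC synthase of the rate-limiting step, ran from 6.63 to 16.6 CPM (median 13.7) after HAC and from 39.0 to 74.4 CPM (median 59.9) after ZmPep3 (log2 difference 2.24 ± 0.25, edgeR adjusted p = 1.73e-10). ACO31 (542136), an ACC oxidase that releases ethylene, was at 37.0 to 63.3 CPM (median 48.0) and 211 to 421 CPM (median 240.1) (log2 difference 2.5 ± 0.40, edgeR adjusted p = 3.65e-06). The groups did not overlap for either gene, and their medians at 30 min of HAC had been 28.5 and 171 CPM. The receptor etr2 (541627) rose less, from 11.8 to 18.1 CPM (median 13.2) to 17.6 to 24.6 CPM (median 21.1) with overlap (log2 difference 0.62 ± 0.13, edgeR adjusted p = 2.26e-04).

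Of 18 genes of jasmonate synthesis, 10 were higher after ZmPep3 and 0 lower, with a list median of 0.43. A fit of only these 12 libraries made 2 of them lower. Their summed level was nonetheless lower after ZmPep3, at 19820 to 22870 CPM against 23030 to 25390 CPM after HAC. Most of that sum was lox10, with means of 15680 CPM after ZmPep3 and 18700 CPM after HAC. Every ZmPep3 library was below every HAC library for lox10, but it did not pass (log2 difference -0.25, edgeR adjusted p = 0.3585). The 4 largest differences were those of opr1, opr2, opr3 and opr4, of the oxophytodienoate reductase family, in which opr7 and opr8 are the pair known to supply jasmonate in maize. opr1 (732815) ran from 4.65 to 7.77 CPM (median 5.51) after HAC and from 22.2 to 158 CPM (median 30.8) after ZmPep3, where library 3 was far above the rest. Its log2 difference was 3.16 ± 0.36 (edgeR adjusted p = 8.92e-10) and 2.39 without library 3. opr2 (732822) had the same pattern, at 6.80 to 12.0 CPM (median 9.27) and 17.1 to 268 CPM (median 28.9), with a log2 difference of 2.89 ± 0.46 (edgeR adjusted p = 3.90e-06) that became 1.56 without library 3 (adjusted p = 0.00229). The counts of opr1 and opr2 were divided between similar genes by the authors' counting and are uncertain. opr4 (732732), with whole counts, was at 0.466 to 1.39 CPM (median 1.03) after HAC and 2.62 to 9.83 CPM (median 4.23) after ZmPep3 (log2 difference 2.47 ± 0.54, edgeR adjusted p = 3.72e-04), and here no library of the groups overlapped. opr3 (732731) was scarce and had overlapping groups, at 0 to 0.233 CPM (median 0) and 0.114 to 1.35 CPM (median 0.475), and its log2 difference of 3.52 ± 0.90 (edgeR adjusted p = 4.13e-04) became 5.57 without HAC library 6.

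Lipoxygenases, which oxidise fatty acids into jasmonates and other oxylipins, moved in opposite directions. Of 7 members not counted among the jasmonate genes, lox4 rose and lox6 fell, and the list median was -0.25. A fit of only these 12 libraries made 3 of them lower. lox4 (100037803) was at 39.9 to 66.3 CPM (median 57.4) after HAC and 122 to 478 CPM (median 179.8) after ZmPep3, with library 3 far above the others. This gave a log2 difference of 2.03 ± 0.24 (edgeR adjusted p = 1.45e-09) and 1.65 without library 3. lox6 (100037805) ran from 1261 to 1540 CPM (median 1426) after HAC and from 408 to 960.4 CPM (median 736) after ZmPep3, all ZmPep3 libraries being lower (log2 difference -0.99 ± 0.22, edgeR adjusted p = 6.22e-04). On the FPKM scale, which allows for gene length, lox6 stood at 444 ± 33.3 FPKM after HAC against 16.1 ± 3.00 FPKM for lox4 (SD, n = 6). After ZmPep3 the levels were 228 ± 57.4 FPKM for lox6 and 67.5 ± 41.3 FPKM for lox4, so lox6 was still the more abundant.

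The TIFY family, which holds the JAZ repressors that jasmonate signalling both degrades and induces, was lower after ZmPep3 in 5 of 21 genes and higher in 3, with a list median of 0.00. These counts stand beside shares over all genes tested of 6.44% lower and 12.8% higher, and the higher count is about that share. A fit of only these 12 libraries made 7 of the TIFY genes higher. TIFY6 (100276585) ran from 151 to 184 CPM (median 170.5) after HAC and from 49.9 to 82.0 CPM (median 73.4) after ZmPep3, where library 3 was the lowest. The groups were well apart, with a log2 difference of -1.25 ± 0.13 (edgeR adjusted p = 1.20e-11), and both were above the controls at 26.1 to 33.6 CPM (median 30.5). TIFY25 (100384222) was at 848 to 1118 CPM (median 1028) and 353 to 587 CPM (median 510.1) (log2 difference -1.03 ± 0.16, edgeR adjusted p = 1.18e-06), and TIFY16 (100282471), with reads shared with similar genes, at 287 to 366 CPM (median 326) and 100.4 to 202 CPM (median 179) (log2 difference -0.93 ± 0.16, edgeR adjusted p = 8.47e-06). All 3 of these were higher after HAC in every library. Among the members higher after ZmPep3, TIFY9 and TIFY20 were of low level at 2 h. TIFY9 (100284894) had a median of 143 CPM at 30 min of HAC, 10.7 CPM at 2 h of HAC and 22.0 CPM at 2 h of ZmPep3. Its log2 difference at 2 h was 1.16 ± 0.26 (edgeR adjusted p = 6.29e-04), without overlap. For TIFY20 (100286212) the medians were 50.6, 3.60 and 6.46 CPM, and the log2 difference was 0.99 ± 0.24 (edgeR adjusted p = 0.00121).

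Genes for volatile terpenes and indole were higher after HAC. Of 18 tested, 8 were lower after ZmPep3 and 2 higher, with a list median of -0.48. This list shares bx1 and igl1 with the benzoxazinoid list below, and bx1 is counted as lower in both. TPS2 (732758), a terpene synthase that makes nerolidol, linalool and geranyllinalool, ran from 235 to 349 CPM (median 313) after HAC and from 68.3 to 99.3 CPM (median 81.6) after ZmPep3. The groups were far apart, and both were far above the controls at 2.60 to 10.7 CPM (median 3.89). The log2 difference was -1.86 ± 0.27 (edgeR adjusted p = 1.59e-07). TPS3 (732759), a close relative, was at 29.4 to 54.8 CPM (median 48.8) and 7.87 to 20.1 CPM (median 12.0), a log2 difference of -1.81 ± 0.31 (edgeR adjusted p = 6.31e-06). Reads of TPS2 and TPS3 were divided between similar genes in all 12 libraries, so the share of each is uncertain. CYP92C5 (103631958), a P450 that turns nerolidol into the homoterpene DMNT and whose counts were whole, was at 139.7 to 279 CPM (median 195) after HAC and 72.3 to 126 CPM (median 94) after ZmPep3 (log2 difference -1.06 ± 0.23, edgeR adjusted p = 4.70e-04).

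The sesquiterpene synthase tps10 (732751), which makes farnesene and bergamotene, ran from 207 to 282 CPM (median 259.8) after HAC and from 73.8 to 107 CPM (median 79.4) after ZmPep3, also without overlap (log2 difference -1.58 ± 0.48, edgeR adjusted p = 0.0145). dxs2 (606430), a deoxyxylulose phosphate synthase at the entry of the plastid isoprenoid pathway, was at 136 to 244 CPM (median 181) and 39.1 to 79.2 CPM (median 46.5). It was the member that changed among 5 tested genes of isoprenoid precursors, with a log2 difference of -1.81 ± 0.27 (edgeR adjusted p = 3.33e-07). Igl (100273163), of the lyases that free indole, fell from 50.5 to 85.5 CPM (median 69.3) to 20.1 to 46.7 CPM (median 32.5) (log2 difference -1.05 ± 0.25, edgeR adjusted p = 0.0013), with its reads likewise shared with a similar gene. For tps10, dxs2 and Igl every HAC library was above every ZmPep3 library. The anthranilate methyltransferases AAMT2 (100281293) and AAMT3 (103637798) were lower by smaller steps. AAMT2 was at 80.0 to 126 CPM (median 109) after HAC and 28.6 to 81.8 CPM (median 62.0) after ZmPep3, with overlap (log2 difference -0.85 ± 0.21, edgeR adjusted p = 0.00163). AAMT3 was at 159 to 205 CPM (median 179) and 79.1 to 132 CPM (median 114) (log2 difference -0.67 ± 0.17, edgeR adjusted p = 0.00175).

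The 2 members that went toward ZmPep3 were less certain. TPS5 (103641226), a sesquiterpene synthase with shared reads, ran from 9.79 to 23.1 CPM (median 16.6) after HAC and from 42.4 to 73.9 CPM (median 47.6) after ZmPep3 (log2 difference 1.64 ± 0.50, edgeR adjusted p = 0.0154), and DESeq2 did not call it. CYP92C6 (100279968), another homoterpene P450, had overlapping groups at 84.2 to 143 CPM (median 117) and 121 to 189 CPM (median 172) (log2 difference 0.49 ± 0.18, edgeR adjusted p = 0.046). Its call was lost without any of 10 of the 12 libraries, the exceptions being HAC library 1 and ZmPep3 library 3, with adjusted p up to 0.134.

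Benzoxazinoids are indole-derived poisons of maize against insects and fungi, and 9 of 14 tested genes of their pathway were lower after ZmPep3 than after HAC, with 1 higher and a list median of -0.68. The lower genes were bx1, bx2, BX3, BX4, BX5, bx6, Bx7, bx8 and bx9, the core pathway from its indole lyase to its glucosyltransferases. bx1 (542117), the lyase that starts the pathway, was at 48.0 to 70.4 CPM (median 68.1) after HAC and 17.7 to 31.0 CPM (median 24.9) after ZmPep3 (log2 difference -1.38 ± 0.43, edgeR adjusted p = 0.0167), a call that was lost in a fit of the 24 leaf 6 libraries. bx2 (100192631), the P450 of the next step, ran from 102 to 161 CPM (median 134) and from 20.3 to 64.4 CPM (median 42.8) (log2 difference -1.69 ± 0.47, edgeR adjusted p = 0.00771). The HAC and ZmPep3 libraries did not overlap for either gene.

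BX5 (103652726), a later P450, ran from 1177 to 1682 CPM (median 1420) after HAC and from 299 to 623 CPM (median 506) after ZmPep3, where library 3 was the lowest, while the controls ran from 79.7 to 175 CPM (median 133). Its log2 difference was -1.52 ± 0.24 (edgeR adjusted p = 8.01e-07), and -1.41 without library 3. BX4 (100382554) was at 1251 to 1540 CPM (median 1480) and 385 to 773 CPM (median 594) (log2 difference -1.29 ± 0.23, edgeR adjusted p = 1.55e-05). The glucosyltransferase bx8 (100277344) was at 112 to 191 CPM (median 144) and 61.8 to 87.6 CPM (median 67.9) (log2 difference -1.02 ± 0.16, edgeR adjusted p = 5.57e-07), and the methyltransferase Bx7 (100147731) at 2047 to 3145 CPM (median 2528) and 1493 to 1858 CPM (median 1594) (log2 difference -0.65 ± 0.17, edgeR adjusted p = 0.00332). In each of these the lowest HAC library was above the highest ZmPep3 library. The steps of the pathway differed in level: on the FPKM scale, means after HAC (SD, n = 6) were 1652 ± 216 for Bx7, 707 ± 87.5 for BX5, 58.6 ± 9.84 for bx2 and 57.9 ± 8.28 for bx1.

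BX14 (100281319) was the exception. This methyltransferase of a late step, which forms a doubly methylated benzoxazinoid in maize, ran from 208 to 339.6 CPM (median 268) after HAC and from 436 to 973 CPM (median 889) after ZmPep3, with library 6 the low ZmPep3 library. No library of the groups overlapped, and the log2 difference was 1.61 ± 0.42 (edgeR adjusted p = 0.00335). The plot of gene lists shows it as the benzoxazinoid gene that passed on the right.

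**Figure D4:**
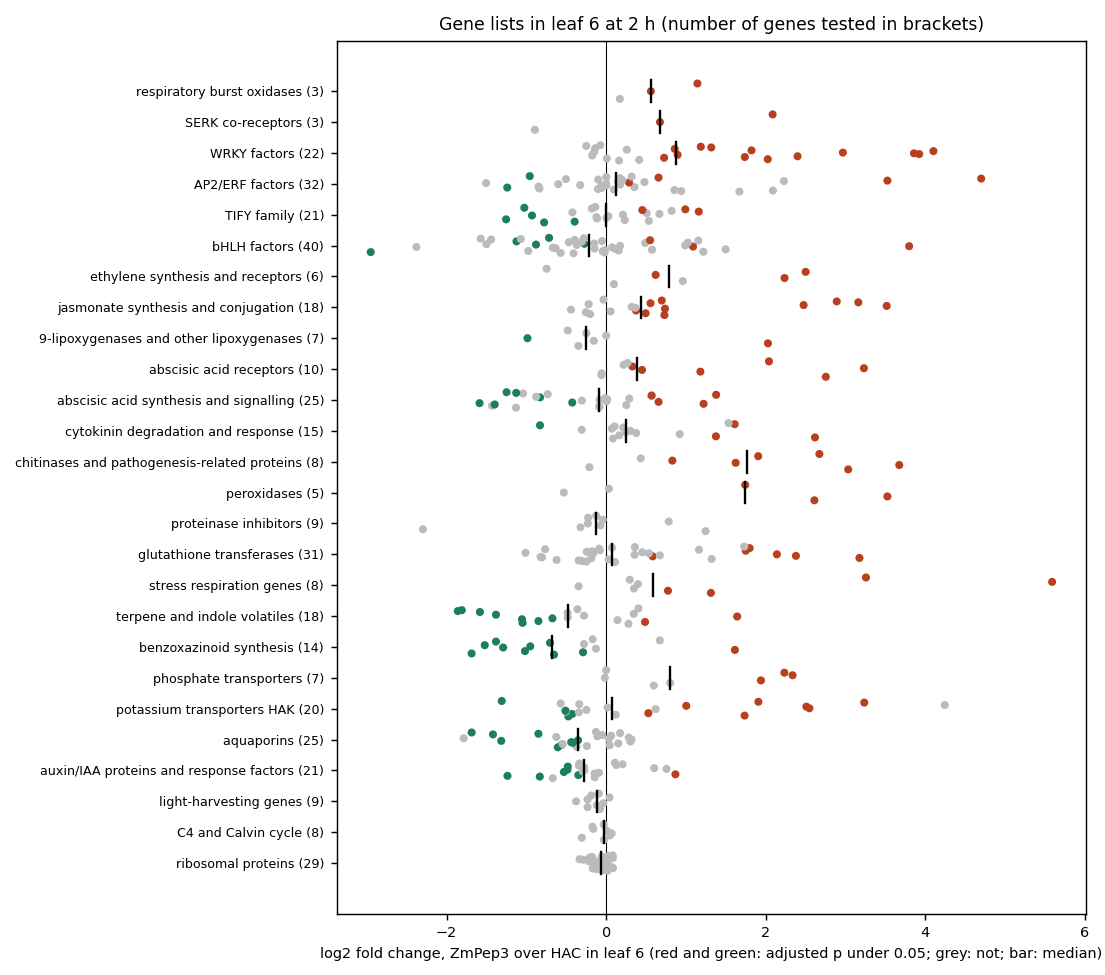
Each row is a list of genes with the number tested in brackets, each point 1 gene at its log2 fold change of ZmPep3 over HAC in leaf 6 (x axis), and each black bar the median of the list. Red and green points passed an adjusted p of 0.05 and grey points did not: WRKY factors (median 0.88) and chitinases and pathogenesis-related proteins (median 1.76) lie to the right, and benzoxazinoid genes (median -0.68) and terpene and indole volatiles (median -0.48) to the left.

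Hormone genes of other kinds also differed. Of 10 PYL receptors of abscisic acid tested, 6 were higher after ZmPep3 and 0 lower, with a list median of 0.39, and 4 were higher without ZmPep3 library 3. PYL5 (100281868) ran from 0.346 to 1.48 CPM (median 0.829) after HAC and from 2.70 to 22.4 CPM (median 6.88) after ZmPep3, with library 3 highest (log2 difference 3.23 ± 0.61, edgeR adjusted p = 4.55e-05, 2.67 without library 3). PYL7 (103634514) was at 3.08 to 10.0 CPM (median 6.90) and 13.5 to 43.2 CPM (median 24.9) (log2 difference 2.04 ± 0.37, edgeR adjusted p = 2.24e-05). For PYL7 both groups overlapped with the controls, which ran from 3.56 to 36.7 CPM (median 21.2). Protein phosphatases of the PP2C kind, which abscisic acid receptors inhibit, went both ways. PP2C30 (103627575) rose from 1.79 to 5.08 CPM (median 2.32) to 5.17 to 9.65 CPM (median 7.33) (log2 difference 1.38 ± 0.20, edgeR adjusted p = 6.68e-08). PP2C2 (100281468) fell from 16.3 to 43.4 CPM (median 21.5) to 6.92 to 12.7 CPM (median 9.67) (log2 difference -1.40 ± 0.22, edgeR adjusted p = 9.85e-07), and PP2C3 (100282657) from 18.2 to 82.7 CPM (median 34) to 9.78 to 18.3 CPM (median 14.1) with overlap (log2 difference -1.59 ± 0.37, edgeR adjusted p = 0.00118).

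Over all 25 genes of abscisic acid synthesis and signalling, 4 were higher and 6 lower, where 12.8% of all genes tested were higher and 6.44% lower. The higher count is not far from its share. The lower count was 2 in a fit of the 24 leaf 6 libraries and 3 without HAC library 3. vp14 (732819), the dioxygenase that limits abscisic acid synthesis, depended on that library. Its level there was 83.0 CPM against a group median of 8.30 CPM, and 7.17 to 10.4 CPM (median 8.40) after ZmPep3. The log2 difference of -1.25 ± 0.46 (edgeR adjusted p = 0.0499) became 0.11 without HAC library 3 (adjusted p = 0.903), and no difference of vp14 is read from these data.

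Of 15 genes of cytokinin degradation and response, 3 were higher and 1 lower, shares not far from those over all genes tested (12.8% and 6.44%). CKX4 (100272805), a cytokinin oxidase that degrades the hormone, ran from 16.4 to 23.1 CPM (median 19.5) after HAC and from 86.8 to 190.5 CPM (median 114) after ZmPep3 (log2 difference 2.62 ± 0.25, edgeR adjusted p = 1.86e-12), and both groups were above the controls at 4.64 to 8.5 CPM (median 5.68). A list made up of auxin response factors with IAA12 and saur3 was lower in 6 of 21 genes tested and higher in 1, with 3 lower without ZmPep3 library 2. Its summed level was nonetheless higher after ZmPep3, at 609 to 660 CPM against 550 to 601 CPM after HAC. A further list, of AUX genes, also holds saur3. Of its 16 tested genes, 1 was higher and 2 lower, or 7 lower in a fit of only these 12 libraries, with a list median of -0.07. IAA12 (100274141), a repressor of auxin responses by its name, was at 3.57 to 5.32 CPM (median 4.79) after HAC and 0.853 to 2.80 CPM (median 1.96) after ZmPep3 (log2 difference -1.24 ± 0.26, edgeR adjusted p = 2.12e-04).

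Aquaporins, the water channels of plant membranes, were lower after ZmPep3 in 9 of 25 genes tested and higher in 0, with a list median of -0.35. A fit of only these 12 libraries made 1 higher. The log2 differences of the lower members ran from -0.35 to -1.69. The 3 largest falls were in scarce members, and 3 of the 9, NIP2-1, pip1-2 and PIP1-3, had reads shared with similar genes. TIP4-4 (542647), of the vacuolar membrane, was at 0.846 to 1.55 CPM (median 1.26) after HAC and 0.152 to 0.680 CPM (median 0.373) after ZmPep3, without overlap (log2 difference -1.69 ± 0.49, edgeR adjusted p = 0.00723). The plasma membrane channels pip2-5 (542619) and PIP2-6 (541891) had medians of 1.88 and 2.5 CPM after HAC and of 0.844 and 1.3 CPM after ZmPep3, with overlap. Their log2 differences were -1.42 ± 0.35 and -1.32 ± 0.37 (edgeR adjusted p = 0.0016 and 0.00649), and the call of PIP2-6 was lost in a fit of the 24 leaf 6 libraries.

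Genes of fermentation and of respiration under stress were higher after ZmPep3 in 4 of 8 tested and lower in 0. pdc1, a pyruvate decarboxylase of ethanol fermentation, had the largest rise among named genes of at least 5 CPM whose groups did not overlap. It ran from 0 to 0.577 CPM (median 0.458) after HAC and from 10.6 to 28.6 CPM (median 14.7) after ZmPep3 (log2 difference 5.59 ± 0.74, edgeR adjusted p = 3.57e-09). aox3 (542676), an alternative oxidase of mitochondria, was at 1.40 to 3.63 CPM (median 2.14) and 10.9 to 54.5 CPM (median 15.6), with library 3 far above the others (log2 difference 3.26 ± 0.48, edgeR adjusted p = 5.75e-07, 2.73 without library 3). aox1 (542073), of the same kind, rose less and with overlap, from 9.07 to 15.0 CPM (median 11.6) to 11.3 to 25.9 CPM (median 19.1) (log2 difference 0.77 ± 0.15, edgeR adjusted p = 7.35e-05).

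Glutathione transferases, which join glutathione to toxic or reactive compounds, were higher in 6 of 31 tested, and in 4 without ZmPep3 library 3, the latter about the 12.8% of all genes. None was lower under edgeR with all groups, with 3 lower at an unadjusted p under 0.05, 2 under DESeq2 and 4 in a fit of only these 12 libraries. gst24 (541837) ran from 4.02 to 8.55 CPM (median 5.28) after HAC and from 32.4 to 100.0 CPM (median 46.0) after ZmPep3 (log2 difference 3.17 ± 0.25, edgeR adjusted p = 5.20e-15, 2.89 without ZmPep3 library 3), and gst30 (541841) from 0.971 to 3.90 CPM (median 2.09) and from 5.12 to 28.9 CPM (median 8.62) (log2 difference 2.38 ± 0.41, edgeR adjusted p = 1.05e-05, 1.81 without library 3). In both, library 3 was the highest. Phosphate transporters were higher in 3 of 7 and lower in 0. pht2 (732716) was at 2.07 to 8 CPM (median 4.71) after HAC and 17.4 to 36.6 CPM (median 22.0) after ZmPep3 (log2 difference 2.34 ± 0.42, edgeR adjusted p = 2.79e-05), and pht7 (732717) at 3.83 to 11.8 CPM (median 10.3) and 19.0 to 88.6 CPM (median 24.5) (log2 difference 2.23 ± 0.39, edgeR adjusted p = 1.40e-05). No ZmPep3 library reached down to the HAC libraries in either, and the reads of pht2 were shared with a similar gene. Potassium transporters of the HAK kind were higher in 7 of 20 and lower in 4, and 7 were lower under DESeq2. HAK27 (103643615) rose from 0.388 to 0.738 CPM (median 0.508) to 2.89 to 11.3 CPM (median 4.08) (log2 difference 3.23 ± 0.54, edgeR adjusted p = 2.54e-06, 2.81 without ZmPep3 library 3), and HAK11 (103645946) fell from 1.48 to 3.63 CPM (median 2.22) to 0.343 to 1.98 CPM (median 0.839) with overlap (log2 difference -1.31 ± 0.35, edgeR adjusted p = 0.0038).

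Among the other named genes with the largest rises, MST1 (542695), a monosaccharide transporter by its name, ran from 8.97 to 12.2 CPM (median 10.4) after HAC and from 56.8 to 226 CPM (median 100.0) after ZmPep3 (log2 difference 3.47 ± 0.24, edgeR adjusted p = 5.52e-17). CNR2 (100277715) and CNR7 (100284351), of the cell number regulators, rose as well. CNR2 was at 2.95 to 6.94 CPM (median 4.97) and 38.3 to 65.8 CPM (median 45.1) (log2 difference 3.32 ± 0.23, edgeR adjusted p = 7.93e-18). CNR7 was at 0.769 to 3.64 CPM (median 1.71) and 13.9 to 70.2 CPM (median 27.2), with library 3 highest (log2 difference 4.09 ± 0.41, edgeR adjusted p = 2.51e-11, 3.67 without library 3). AR4 (100274507) was at 0.155 to 1.25 CPM (median 0.543) and 4.16 to 16.1 CPM (median 6.79), with library 3 again highest (log2 difference 3.57 ± 0.43, edgeR adjusted p = 1.01e-09, 3.24 without library 3). Of 11 expansins tested, proteins that loosen cell walls, 1 was higher and 3 lower, or 1 lower without ZmPep3 library 3, with a list median of -0.56. The higher one, expA4 (100284166), was not among the largest rises. It was at 0.461 to 1.54 CPM (median 1.11) and 3.31 to 8.32 CPM (median 5.41) (log2 difference 2.40 ± 0.43, edgeR adjusted p = 1.71e-05). Gene 100282584, which has no name in the reference table, rose from 0 to 0.189 CPM (median 0.0194) to 8.16 to 31.9 CPM (median 24.5), and gene 103652733 from 0.0750 to 0.302 CPM (median 0.117) to 6.16 to 24.5 CPM (median 20.2). Both were picked among genes whose groups did not overlap, so their lack of overlap is not further support.

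Among the other named genes with the largest falls, PRP, a proline-rich protein by its name, was the most abundant. It ran from 9486 to 14750 CPM (median 11670) after HAC and from 2800 to 5814 CPM (median 3320) after ZmPep3, below the controls at 5664 to 11130 CPM (median 6548) in all but library 6. The log2 difference was -1.70 ± 0.27 (edgeR adjusted p = 2.43e-06). CBL8 (100285616), a calcium sensor of the calcineurin B-like kind, fell from 5.05 to 8.97 CPM (median 7.93) to 1.71 to 2.77 CPM (median 2.58) (log2 difference -1.64 ± 0.23, edgeR adjusted p = 7.27e-08). ACHE (606473), an acetylcholinesterase, fell from 5.97 to 9.32 CPM (median 8.27) to 2.25 to 3.72 CPM (median 2.59) (log2 difference -1.53 ± 0.23, edgeR adjusted p = 3.33e-07). phytase2 (100274046), which releases phosphate from phytate, was induced over the controls by both agents, at 214 to 371 CPM (median 323) after HAC and 44.8 to 149 CPM (median 119) after ZmPep3 (log2 difference -1.48 ± 0.41, edgeR adjusted p = 0.00697). GB1 (100217119) was at 67.6 to 213 CPM (median 133) and 26.9 to 66.0 CPM (median 35.7) (log2 difference -1.68 ± 0.55, edgeR adjusted p = 0.0254), a call lost without any of HAC libraries 2 and 3 and ZmPep3 libraries 2, 3, 5 and 6. Of genes without a name, gene 100272479 fell from 1.68 to 10.2 CPM (median 5.07) to 0.271 to 1.33 CPM (median 0.644).

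Several groups of abundant genes gave 0 calls in either direction with all groups fitted: 29 ribosomal proteins (list median -0.07), 9 light-harvesting genes (-0.12), 8 genes of C4 photosynthesis and the Calvin cycle (-0.03) and 12 laccases (0.00). At an unadjusted p under 0.05, 1 ribosomal protein and 1 C4 gene were lower, 1 laccase was higher and 0 light-harvesting genes differed. DESeq2 called 1 ribosomal protein and 1 C4 gene lower, and edgeR on only these 12 libraries called 3 light-harvesting genes and 1 C4 gene lower and 1 laccase higher.

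Set beside the leaf 6 controls, genes lower after ZmPep3 than after HAC were of more than 1 kind. Of all genes tested, 23.3% were higher and 18.8% lower after ZmPep3 than in the controls, together 42.1%. After HAC 13.9% were higher and 11% lower, together 24.9%. The values that follow are log2 differences from the same 6 controls, so the pair for each gene shares its reference. TPS2 was 3.92 ± 0.28 after ZmPep3 and 5.78 ± 0.28 after HAC, dxs2 4.07 ± 0.29 and 5.87 ± 0.28, tps10 6.51 ± 0.59 and 8.09 ± 0.59, and CYP92C5 5.18 ± 0.26 and 6.23 ± 0.25, all past the threshold (edgeR adjusted p at most 6.09e-13). These volatile genes were thus above the controls after either agent, and less so after ZmPep3. The same was true of BX5, at 1.93 ± 0.24 after ZmPep3 and 3.46 ± 0.24 after HAC, and of TIFY6, at 1.23 ± 0.13 and 2.49 ± 0.13. PRP was lower than in the controls after ZmPep3, at -1.05 ± 0.27 (edgeR adjusted p = 0.00147), and 0.65 ± 0.27 after HAC, which did not pass (adjusted p = 0.075).

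Several genes higher after ZmPep3 had HAC values near those of the controls at 2 h. serk3 was 1.92 ± 0.12 after ZmPep3 and -0.17 ± 0.13 after HAC, which did not pass (edgeR adjusted p = 0.357). The same held for chiI, at 4.32 ± 0.32 and 0.65 ± 0.33 (adjusted p after HAC = 0.151), for pr6, at 3.07 ± 0.58 and 0.03 ± 0.59 (adjusted p after HAC = 0.978), and for opr1, at 3.07 ± 0.36 and -0.09 ± 0.37 (adjusted p after HAC = 0.895). acs7 passed with both agents, at 3.22 ± 0.25 and 0.98 ± 0.26. WRKY97 was 2.86 ± 0.35 after ZmPep3 and -1.24 ± 0.41 after 2 h of HAC, the latter a fall (edgeR adjusted p = 0.0174).

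In leaf 5, the other immature leaf, ZmPep3 against HAC gave 3735 higher genes (14.6%) and 2956 lower genes (11.6%), together 26.2% of those tested. The leaves share no library. Of the 4926 genes called in leaf 6, 4642 (94.2%) had the same sign in leaf 5, against 71.3% of all genes tested. Called in both leaves in the same direction were 3295 genes, which is 66.9% of the leaf 6 calls and 49.2% of the leaf 5 calls, and 13 genes were called in opposite directions. Across 16081 genes at 5 CPM or more in leaf 6, the log2 differences of the 2 leaves correlated with Pearson's r = 0.863. Genes are not independent replicates, what else the leaves may have shared was not tested, and these figures are a description.

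The test of the difference between the leaves passed for 151 genes (0.591%), 86 with a higher value in leaf 6 (0.336% of those tested) and 65 with a lower one (0.254%). DESeq2 size factors made the balance 63 higher and 101 lower, and the count rose to 251 without leaf 5 ZmPep3 libraries 1 and 6, which stood apart in their group. Volatile genes were among those that were lower in leaf 6. dxs2 had a log2 difference between ZmPep3 and HAC of -1.81 ± 0.27 in leaf 6 and of 0.17 ± 0.26 in leaf 5, and the leaves differed by -1.97 ± 0.38 (edgeR adjusted p = 0.00269). For TPS3 it was -1.81 ± 0.31 in leaf 6 and 0.47 ± 0.30 in leaf 5, a difference of -2.28 ± 0.43 (edgeR adjusted p = 0.00238), with the caution on shared reads. TPS2 gave a difference of -1.73 ± 0.37 (edgeR adjusted p = 0.0106), and TIFY6 one of -1.26 ± 0.19 (edgeR adjusted p = 8.66e-05). The leaf 6 and leaf 5 values of tps10 (-1.58 and -0.17) and CYP92C5 (-1.06 and 0.04) were not shown to differ (edgeR adjusted p = 0.424 and 0.119). bHLH76 (100272488), at -0.63 ± 0.26 in leaf 6, which did not pass, and 1.16 ± 0.26 in leaf 5, differed by -1.79 ± 0.37 (edgeR adjusted p = 0.00652).

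Other genes had a higher difference in leaf 6 than in leaf 5. CER1 (100273712), an enzyme of wax alkane synthesis in Arabidopsis, ran from 3.68 to 10.1 CPM (median 7.27) after HAC and from 8.72 to 42.6 CPM (median 16.6) after ZmPep3 in leaf 6. This gave a log2 difference of 1.46 ± 0.35 in leaf 6 (edgeR adjusted p = 0.00128) and -0.72 ± 0.33 in leaf 5, and the leaves differed by 2.18 ± 0.48 (edgeR adjusted p = 0.0141). PINX (100281451) was at 28.2 to 37.8 CPM (median 36.2) and 53.6 to 115 CPM (median 70.5) in leaf 6, with a log2 difference of 1.12 ± 0.13 against 0.28 ± 0.13 in leaf 5 and a difference of 0.84 ± 0.19 (edgeR adjusted p = 0.0145). The difference of PER42, 1.24 ± 0.32 (edgeR adjusted p = 0.0464), was lost under 4 alternatives, with DESeq2 size factors, a replicate block, a fit of only the 4 groups and without leaf 5 ZmPep3 libraries 1 and 6. serk3 differed by 0.66 ± 0.18 between the leaves, which did not pass (edgeR adjusted p = 0.0578). cbp2 (100286080) and MYBR26 (100284888) did not differ past the threshold in leaf 6 (0.12 and 0.06) but were lower after ZmPep3 in leaf 5 (-0.45 and -0.49), with differences of 0.57 ± 0.13 and 0.55 ± 0.14 (edgeR adjusted p = 0.0113 and 0.0376).

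In leaf 4, the mature leaf, ZmPep3 against HAC gave 3882 higher genes (15.2%) and 4097 lower genes (16%), together 31.2% of those tested. Of the genes called in leaf 6, 3920 (79.6%) had the same sign in leaf 4, against 62.9% of all genes tested. Called in both leaves in the same direction were 2398 genes, 48.7% of the leaf 6 calls and 30.1% of the leaf 4 calls. A further 267 were called in opposite directions, 119 higher in leaf 6 and lower in leaf 4, and 148 the reverse. Across the 16081 genes at 5 CPM or more in leaf 6, Pearson's r was 0.499. Leaf 4 also differed from leaf 6 in having its sheath removed, and age and sheath removal cannot be told apart.

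The difference between leaves 6 and 4 passed for 3763 genes (14.7%), 2239 higher in leaf 6 (8.76%) and 1524 lower (5.96%), and with DESeq2 size factors for 1837 higher and 1864 lower. Several genes for volatiles had opposite signs in these leaves. dxs2 was higher after ZmPep3 in leaf 4, at 2.26 ± 0.26, and the leaves differed by -4.06 ± 0.37 (edgeR adjusted p = 5.26e-12). TPS2 was 1.16 ± 0.26 in leaf 4, a difference of -3.02 ± 0.37 (edgeR adjusted p = 1.66e-08), and TPS3 1.57 ± 0.30, a difference of -3.38 ± 0.43 (edgeR adjusted p = 2.93e-08). tps10 was 1.64 ± 0.48 in leaf 4, a difference of -3.22 ± 0.68 (edgeR adjusted p = 5.47e-04), and CYP92C5 1.89 ± 0.23, a difference of -2.95 ± 0.33 (edgeR adjusted p = 1.09e-09). In all 5, as the plot of levels by leaf shows, leaf 4 was higher after ZmPep3 and leaf 6 after HAC. Of the 18 genes for volatiles, 8 had a lower value in leaf 6 than in leaf 4, as did 16 of 21 TIFY genes, 6 of 14 benzoxazinoid genes and 5 of 7 lipoxygenases. TIFY6 gave a difference of -2.22 ± 0.19 (edgeR adjusted p = 6.15e-14), and BX5 one of -1.68 ± 0.33 (edgeR adjusted p = 1.67e-04).

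**Figure D5:**
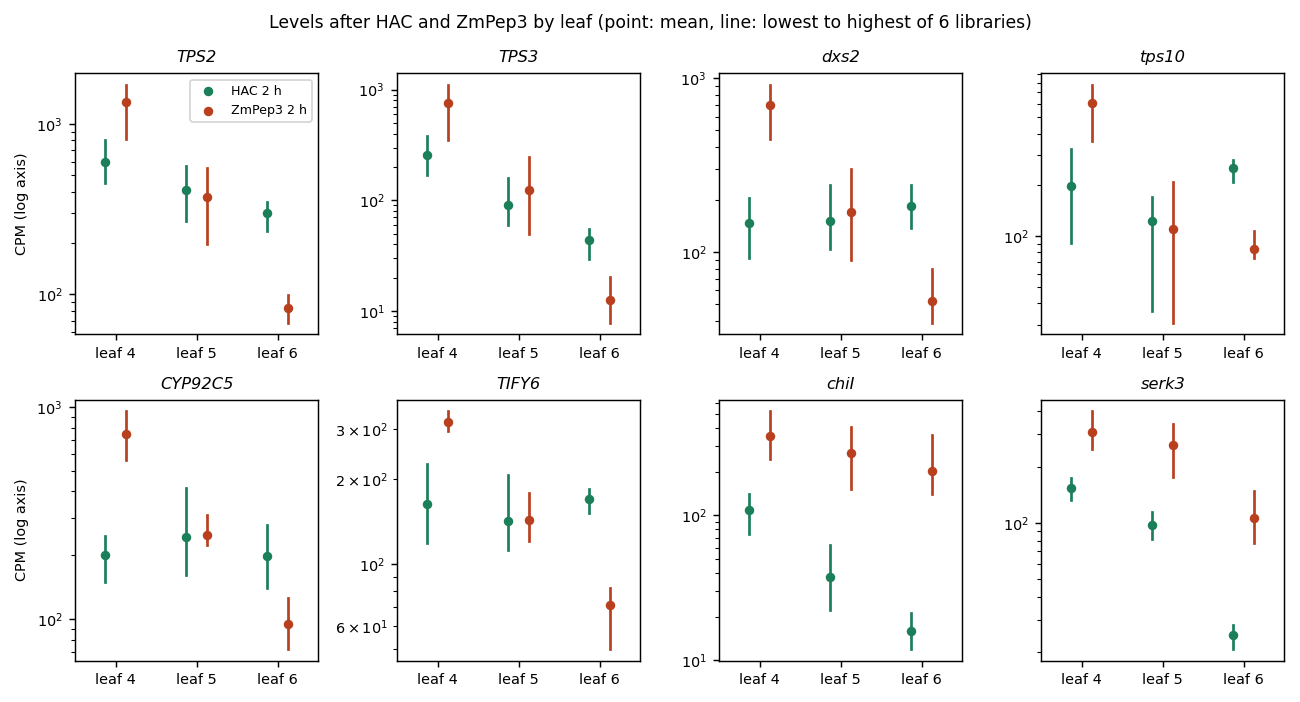
Each panel shows 1 gene in leaves 4, 5 and 6 (x axis), with the mean level of 6 libraries in CPM on a log y axis as a point and a line from the lowest to the highest library, in green after 2 h of HAC and in red after 2 h of ZmPep3. For dxs2 the red point is above the green one in leaf 4 and below it in leaf 6 (log2 differences 2.26 and -1.81), while chiI and serk3 are higher after ZmPep3 in each leaf.

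Some genes were higher after ZmPep3 in both leaves, and the more so in leaf 6. chiI was 1.70 ± 0.32 in leaf 4, and the leaves differed by 1.97 ± 0.45 (edgeR adjusted p = 0.00131). For MST1 the difference was 2.46 ± 0.34 (edgeR adjusted p = 1.69e-07), for PER42 1.91 ± 0.32 (edgeR adjusted p = 9.59e-06) and for serk3 1.09 ± 0.18 (edgeR adjusted p = 3.60e-06). The other 2 SERK genes went the opposite way, with a lower value in leaf 6 than in leaf 4 past the threshold. EREB58 gave 2.55 ± 0.81 (edgeR adjusted p = 0.0219). PYL5, at -0.42 ± 0.54 in leaf 4, differed by 3.65 ± 0.82 (edgeR adjusted p = 9.40e-04). Ethylene genes were not shown to differ: ACO31 was 2.5 in leaf 6 and 2.51 in leaf 4, with a difference of -0.01 ± 0.57, and acs7 2.24 and 3.08, with a difference of -0.85 ± 0.35 (edgeR adjusted p = 0.0996). TIFY29 (100284541), at 0.51 ± 0.41 in leaf 6, where it did not pass, and 4.66 ± 0.51 in leaf 4, differed by -4.16 ± 0.65 (edgeR adjusted p = 2.39e-06), and PRP, at 0.62 ± 0.27 in leaf 4, differed by -2.32 ± 0.39 (edgeR adjusted p = 1.12e-05).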

How the data were processed

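Total RNA of the frozen leaves was sequenced from DNBSEQ libraries, per the labels. Bowtie2, RSEM and the genome build B73 RefGen_v4 are named, without versions, per the submitters' processing notes. The authors deposited expected counts per gene, which need not be whole where reads fit several genes: 11.09% of the values above 0 were not whole. The authors also deposited FPKM values, used only to compare levels between genes. The expected counts were rounded, and all 72 libraries in 12 groups were fitted together with edgeR 4.0.16 (TMM scaling, low-count filter, robust quasi-likelihood test, R 4.3.3). A further 11312 rows of the table are blank in every library and were left out. Genes reported as having shared reads had counts that were not whole in at least 9 of the 12 libraries, and strand was not given in the sources used here, so overlapping antisense transcripts cannot be told apart. Contrasts were ZmPep3 minus HAC at 2 h in each leaf, the differences of these contrasts between leaf 6 and the other leaves, and each agent minus control in leaf 6. Log2 differences carry standard errors, p-values were adjusted by Benjamini-Hochberg over the 25558 genes tested, and the threshold was 0.05. CPM values were scaled with TMM factors, which ran from 0.855 to 0.926 in the 12 libraries, and their total counts of 29643837 to 30097660 limit the precision of genes under about 1 CPM most. The p-values rest on the spread between the 6 biological replicates within each group, estimated over all 72 libraries in 12 groups together. The procedure was tested on simulated data.

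Gene names came from the reference table of Zm-B73-REFERENCE-NAM-5.0, another assembly, so no coordinates are given: 30403 of the 32235 genes were in it, 2500 of them with a name other than a locus number. Genes were named if they were among the 12 largest rises or falls with a name, an adjusted p under 0.05, no overlap of the groups and at least 5 CPM in the higher group, the 4 smallest adjusted p of a list, or the 5 largest differences between leaves in each direction. A like rule for genes with only a description could not be applied, because the table has no descriptions. Under the last rule OLE18, AUX5, ZmCASP2, hir2, OFP32, Laccase-7, LOB33 and bHLH115 were under 5 CPM in leaf 6 and are only named. The genes without a name, opr3 and the FPKM comparisons were chosen after their values were seen. The comparison and the gene lists, among them 30 lists added by gene symbol, were chosen with earlier results of these data known. Libraries with the same replicate number did not deviate together (correlations of -0.0455 to 0.0475 over the 6 numbers), so the numbers were not used as pairs. Alternatives were DESeq2 size factors, other low-count filters, a replicate block, fits of fewer groups, each library left out, DESeq2 1.42.0 and, added after seeing the data, fits without libraries that stood apart.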

Additional observations from a re-analysis of the deposited data

Results flagged for a closer look

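Over the 96 genes named here, 32 of 192 groups of 6 values held a library far from the other 5 of its group. Many of them were the same library. For normally distributed values chance gives about 1 in 20 groups. Whether these CPM values are so distributed was not tested, so no excess over chance is read. ZmPep3 library 3 was far above the rest of its group, in CPM, for CNR7 (70.17), chiI (360.2), AR4 (16.14), aox3 (54.47), WRKY96 (4.344), WRKY29 (21.94), opr1 (158.4), opr2 (267.5), lox4 (477.6), ACO31 (421.2), gst24 (100.0), gst30 (28.88), bz2 (1.935), PYL5 (22.42), HAK27 (11.28) and PINX (114.7). It was far below the rest for TIFY6 (49.9) and TIFY16 (100.4). ZmPep3 library 6 was low for PER70 (17.74), BX14 (436.2) and gene 100282584 (8.159) and high for PRP (5814) and CER1 (42.58). Among the HAC libraries, library 1 was high for PER70 (12.17). Library 3 was high for etr2 (18.11), vp14 (83.05) and gene 100281016 (31.45) and low for BX4 (1251). Library 4 was high for pr6 (29.35) and CYP71Z18 (0.7555), library 5 stood apart for MYBR26 (39.86) and library 6 for opr3 (0.233).

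The difference between ZmPep3 and HAC differed between leaf 6 and leaf 5, on the log2 scale and by edgeR's test of the difference itself, for dxs2 (-1.9719), TPS3 (-2.2836), TPS2 (-1.7312), TIFY6 (-1.2646), vp14 (-2.8133) and bHLH76 (-1.7947), which were lower in leaf 6. It was higher in leaf 6 for PER42 (1.2396), CER1 (2.1796), PINX (0.8409), cbp2 (0.5741) and MYBR26 (0.5493). Against leaf 4 the difference was lower in leaf 6 for BX5 (-1.6808), tps10 (-3.2197), PRP (-2.3178), dxs2 (-4.0633), TPS3 (-3.38), TPS2 (-3.0207), TIFY6 (-2.2209), CYP92C5 (-2.9458), vp14 (-2.2184), bHLH76 (-3.2321) and TIFY29 (-4.155). It was higher in leaf 6 for EREB58 (2.5529), chiI (1.9716), MST1 (2.4649), PER42 (1.9147), PYL5 (3.6532), CER1 (2.4064), PINX (0.7796), cbp2 (0.3878) and MYBR26 (0.4792). The values of vp14 rest on HAC library 3, and the cause of these differences was not tested.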

How the results depend on the processing

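In leaf 6, 4926 genes passed the threshold for ZmPep3 against HAC, 4942 with a replicate block, 4700 to 6272 under the other alternatives and 3859 to 4945 with each library left out, the lowest without ZmPep3 library 3. Between leaves 6 and 5, 151 genes passed, 168 with a replicate block, 278 in a fit of only the 4 groups, 251 without leaf 5 ZmPep3 libraries 1 and 6 and 302 under DESeq2. DESeq2 size factors moved the share higher in leaf 6 from 57.0% to 38.4%. Between leaves 6 and 4, 3763 genes passed, 3795 with the block and 4455 in a fit of only the 4 groups, and the share higher was 59.5%, or 49.6% with DESeq2 size factors. No scaling moved the median of all genes by over 0.1 on the log2 scale. Of 91 named genes past the threshold in leaf 6, 88 stayed past it without each library in turn and 85 under every other alternative, and vp14, at -1.25, was the gene that reversed, with values of -1.4552 to 0.11 when a library was left out and the highest without HAC library 3. Losses under other alternatives were bx1, PIP2-6 and CYP71Z18 in the fit of the 24 leaf 6 libraries, TPS5 under DESeq2, and CYP92C6 and vp14 under several. The cause was not tested. Depth limits genes under about 1 CPM, such as PepR1.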

Other observations

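A few members of gene groups outside those described above differed between ZmPep3 and HAC in leaf 6, where 19.3% of all genes tested passed the threshold. Of 12 genes of flavonoid synthesis, 2 were higher after ZmPep3 and 0 lower, 1 of them bz2, a glutathione transferase of anthocyanin transport, at 0 to 0.351 CPM (median 0.0942) after HAC and 0.620 to 1.94 CPM (median 0.911) after ZmPep3. Its log2 difference was 2.72 ± 0.90 (edgeR adjusted p = 0.013). Of 13 tubulins, 2 were lower, or 1 without ZmPep3 library 3. Of 14 autophagy genes, 3 were lower, or 1 without ZmPep3 library 3. Of 13 cellulose synthases, 1 was lower, or 4 in a fit of only the 12 libraries. Heat shock proteins, the chaperones of stressed cells, were higher in 2 and lower in 1 of 14 tested, and the higher count was 1 without ZmPep3 library 3. Of 4 tested genes of terpenoid phytoalexins, antifungal diterpenoids and sesquiterpenoids of maize, 1 was higher, CYP71Z18, which stayed at or under 2.17 CPM in every library of the ZmPep3 group.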
